A study of Homo sapiens with 60 samples.

Results

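The genes described here are 35 genes of DNA replication and deoxynucleotide supply, taken by name from a table of 60675 genes. The genes were chosen by function, with earlier results of these data known. All 35 were found by matching Ensembl identifiers to symbols, and all 35 passed the filter on low counts in each fit. The cells were A549, an established human lung carcinoma line, exposed for 24 h to extracts used in Korean herbal medicine and measured by directional mRNA sequencing. There were 60 libraries in 25 groups. The 3 vehicle libraries received DMSO, at a concentration on which the sample labels and the series text differ. Sayeok-tang (n = 3 per dose) and Bojungikgi-tang (n = 2 per dose) were multi-herb water extracts, given at high, medium and low doses of 500, 100 and 20 µg/mL. Ethanol extracts with 3 libraries per dose were Zingiberis Rhizoma Recens (fresh ginger), Zingiberis Rhizoma (dried ginger) and Pinelliae Tuber at the same 500, 100 and 20 µg/mL, and Scutellariae Radix (Scutellaria root) at 190, 38 and 7.6 µg/mL. Coptidis Rhizoma (Coptis rhizome, 110, 22 and 4.4 µg/mL) and Zizyphi Fructus (jujube fruit, 500, 100 and 20 µg/mL) had 1 library per dose. According to the series text, an extract whose IC20 was below the standard top dose was given at that IC20 and at dilutions of it, so the high doses of Scutellaria and Coptis were set by an inhibitory effect. The labels do not say whether replicates were separate cultures, so the p-values measure the spread between libraries, which may be technical.

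The libraries held gene counts of 17.51 M to 38.54 M (median 23.53 M), and the 35 genes together held 59081 to 122174 counts per library. Markers of the line were present in each library: KRT8, an epithelial keratin, ran from 1960 to 3680 CPM (counts scaled to the effective library size), and AKR1B10, a reductase abundant in A549, from 2600 to 3480 CPM. The epithelial adhesion gene EPCAM was low, at 3.85 to 6.54 CPM. CD3E of T cells was at 0 in 60 libraries, and PTPRC of white blood cells and VWF of endothelium did not pass 0.0480 and 0.133 CPM. Of the other markers listed for other cell types, the collagen gene COL1A1 reached 36.0 CPM and the lysosomal gene CD68 reached 17.1 CPM. Of 12 markers of other cell types 4 passed the filter on low counts. With dried ginger at the high dose KRT8 (-0.86 ± 0.05 log2), KRT18 (-0.82 ± 0.05) and COL1A1 (-0.72 ± 0.07) were lower than in vehicle and CD68 was higher (1.40 ± 0.14), and with Scutellaria KRT8 (-0.33 ± 0.04) and COL1A1 (-0.55 ± 0.06) were lower (edgeR, adjusted p under 0.05). Their part in the results below was not tested.

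Before each S phase a cell licenses its replication origins. ORC1 and ORC6, subunits of the origin recognition complex, together with CDC6 and CDT1, load the ring of MCM2 to MCM7 onto DNA. CDC45 and the GINS complex (GINS1 to GINS4) then turn this ring into the active helicase, with the help of MCM10. Polymerase alpha and primase (POLA1, POLA2, PRIM1, PRIM2) lay down primers, the RFC2 to RFC5 subunits load the sliding clamp PCNA, and polymerases delta and epsilon (POLD1, POLE, POLE2) copy the strands. RPA2 belongs to the single-strand binding complex, FEN1 trims the flaps of lagging-strand fragments, and LIG1 seals them. Ribonucleotide reductase (RRM1 and RRM2) makes deoxynucleotides, TK1 salvages thymidine, and TYMS makes thymidylate. Many of these genes are transcribed at the start of S phase under E2F factors. Their RNA level in a culture can vary with how many cells are dividing, which these libraries do not measure.

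Promoter sequence was taken from RefSeq windows reaching from 250 bases before to 50 after each annotated start (GRCh38.p14), which were found for 31 of the 35 genes, the exceptions being MCM4, MCM5, GINS4 and RPA2. The stretches below lie upstream of the start and overlap no exon of GENCODE release 29. They are shown because the 5 genes differ in the calls described below, though they do not cover the full range of changes. MCM6, PCNA and MCM10 were called lower with dried ginger and with Scutellaria. POLA1 was called with dried ginger but not with Scutellaria, and PRIM1 was called with neither. Capitals mark matches on either strand to the E2F-type letters TTTCCCGC, TTTCGCGC, TTTGCCGC or TTTGGCGC, or to CCAAT.
MCM6, chr2:135876514-135876613, minus strand: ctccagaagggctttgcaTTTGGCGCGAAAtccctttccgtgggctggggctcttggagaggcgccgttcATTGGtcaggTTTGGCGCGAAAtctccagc
PCNA, chr20:5126627-5126722, minus strand: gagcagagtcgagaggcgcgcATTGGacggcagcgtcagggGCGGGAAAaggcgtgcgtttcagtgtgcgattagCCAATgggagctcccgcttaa
POLA1, chrX:24693738-24693837, plus strand: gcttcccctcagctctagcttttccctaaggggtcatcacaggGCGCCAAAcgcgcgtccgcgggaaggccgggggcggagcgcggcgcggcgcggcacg
MCM10, chr10:13161408-13161507, plus strand: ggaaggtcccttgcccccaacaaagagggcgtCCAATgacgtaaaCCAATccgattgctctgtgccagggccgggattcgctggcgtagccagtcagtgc
PRIM1, chr12:56752374-56752443, minus strand: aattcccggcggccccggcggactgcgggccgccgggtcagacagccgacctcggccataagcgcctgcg

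The MCM6 stretch held 4 E2F-type matches, in 2 places where matches on opposite strands overlap, and 1 CCAAT match. PCNA held 1 E2F-type match between 2 CCAAT matches, POLA1 held 1 E2F-type match, and MCM10 held 2 CCAAT matches and none of the E2F type. The stretches are parts of the windows and differ in position. Outside them POLA1 had a CCAAT match at -36 and PRIM1 at -18 bases from the start. Over the whole windows, 17 of the 31 genes (54.8%) had an E2F-type match, against 3.99% of the 27305 genes in the RefSeq table. The 17 were CDC6, CDT1, MCM2, MCM3, MCM6, MCM7, GINS1, GINS2, GINS3, PCNA, RFC3, POLA1, POLA2, POLE, POLE2, LIG1 and TYMS. CCAAT was present in 18 of 31 (58.1%), against 39.72% of all genes. A match is only a description of the letters.

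In vehicle cells, where levels of different genes are compared per kilobase of exon, PCNA was the highest of the 35 at 207.5 ± 6.91 CPM per kb (SD, n = 3). TK1 (81.6 ± 4.17), MCM7 (75.9 ± 1.23), RRM2 (64.4 ± 1.32) and TYMS (57.4 ± 1.65) followed on the same scale. The lowest were PRIM2, at 4.12 ± 0.0344 CPM per kb, and GINS3, at 5.55 ± 0.284. The clamp and the nucleotide enzymes stood near the top of the list. The catalytic subunits of 2 polymerases stood near the bottom on this scale, with POLE at 8.52 ± 0.512 and POLA1 at 9.26 ± 0.330 CPM per kb. POLD1, the catalytic subunit of polymerase delta, was higher at 18.7 ± 0.321. The accessory subunits POLE2 (6.04 ± 0.487) and POLA2 (7.23 ± 0.197) were lower than POLE and POLA1. Length was that of all annotated exons of a gene merged, not of 1 transcript. POLE had the longest of the 35, at 16.61 kb, which lowers its value, and the order of genes depends on this choice of length.

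With dried ginger at 500 µg/mL, 29 of the 35 genes fell below vehicle and none rose (edgeR quasi-likelihood test, Benjamini-Hochberg adjusted p under 0.05), while 19% of the 16628 genes tested were called lower and 20.2% higher. The median change of the 35 was -0.30 log2 (-18.6%), against 0.01 over all genes tested. By role, 4 of 4 nucleotide supply genes, 12 of 12 helicase genes and 3 of 3 strand binding and joining genes fell. Among the polymerase and primase genes 5 of 7 fell, of the clamp and its loader 3 of 5, and of the licensing genes 2 of 4. In bulk RNA, fewer cells in S phase and less RNA of these genes per cell cannot be told apart.

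RRM2, the S phase subunit of ribonucleotide reductase (chr2:10120698-10131419, plus strand, GRCh38), was at 341, 351 and 337 CPM in the vehicle libraries and at 226, 223 and 238 CPM with dried ginger at the high dose. The groups lay far apart, and the change was -0.58 ± 0.04 log2 (SE, adjusted p = 1.46e-13 by edgeR). TK1 (chr17:78174075-78187233, minus strand) went from 147, 148 and 161 CPM to 94.6, 92.2 and 92.8 CPM, which was the largest change of the 35 at -0.70 ± 0.06 log2 (edgeR adjusted p = 7.28e-11). Both enzymes act in deoxynucleotide supply, and the other genes of that role moved with them. TYMS stood at 137, 145 and 143 CPM in vehicle and at 104, 104 and 110 CPM with dried ginger (-0.42 ± 0.05 log2), and RRM1 changed by -0.36 ± 0.04 log2. The median of the 4 nucleotide supply genes was -0.50 log2.

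The helicase genes fell by less, with a median of -0.31 log2 and a range from -0.53 to -0.14. GINS1 was at 89.9, 91.0 and 93.3 CPM in vehicle and at 59.5, 66.9 and 65.8 CPM with dried ginger (-0.51 ± 0.05 log2, edgeR adjusted p = 9.46e-10). MCM10 was at 78.4, 79.5 and 74.2 CPM in vehicle and at 57.9, 58.4 and 61.1 CPM with dried ginger (-0.39 ± 0.04 log2). In both genes the 3 treated libraries lay below the 3 vehicle libraries with no overlap. MCM2 and MCM5, 2 subunits of the ring, changed by -0.35 ± 0.04 and -0.27 ± 0.04 log2, GINS2 by -0.53 ± 0.06 and CDC45 by -0.28 ± 0.06. MCM3 was the least changed helicase gene, at -0.14 ± 0.04 log2, and its call was lost with scaling by total count (adjusted p = 0.0519, between 0.000219 and 0.0519 over 12 alternatives).

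PCNA, the sliding clamp, stood at 303, 296 and 316 CPM in vehicle and at 229, 224 and 246 CPM with dried ginger (-0.39 ± 0.05 log2, edgeR adjusted p = 1.28e-06). Its loader was split: RFC5 (-0.37 ± 0.04 log2) and RFC3 (-0.17 ± 0.05) fell, whereas RFC2 (-0.11 ± 0.05) and RFC4 (-0.09 ± 0.06) did not pass the test. Without library 2 of the high dose RFC3 was not called (edgeR adjusted p = 0.0597, between 0.00158 and 0.0597 over 12 alternatives). FEN1, the flap nuclease, fell from 121, 115 and 121 CPM to 84.6, 83.0 and 90.5 CPM (-0.46 ± 0.05 log2, edgeR adjusted p = 5.50e-09), more than LIG1 (-0.31 ± 0.04) or RPA2 (-0.26 ± 0.05), though these differences between genes were not tested.

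Of the polymerase genes, the accessory subunits POLE2 (-0.39 ± 0.08 log2) and POLA2 (-0.27 ± 0.05) fell most. POLA1, the catalytic subunit of polymerase alpha, was at 61.1, 57.9 and 57.1 CPM in vehicle and at 49.7, 50.7 and 56.9 CPM with dried ginger. The highest treated library nearly reached the lowest vehicle library, and the change was -0.16 ± 0.05 log2 (edgeR adjusted p = 0.00628). This call was lost with total count scaling and without library 1 of the high dose or of the vehicle (adjusted p between 0.000611 and 0.061 over 12 alternatives). POLD1 and PRIM2 fell by 0.20 and 0.18 log2. The PRIM2 call was lost without library 2 of the high dose or library 2 or 3 of the vehicle, without the filter on low counts and with total count scaling (adjusted p between 0.00915 and 0.0887). POLE, at -0.10 ± 0.06 log2, did not pass.

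Among the licensing genes ORC1 fell from 45.4, 41.6 and 44.8 CPM to 34.9, 31.1 and 34.2 CPM (-0.39 ± 0.05 log2, edgeR adjusted p = 8.66e-07), and CDC6 fell by 0.22 ± 0.04 log2. ORC6 (-0.09 ± 0.06 log2) and CDT1 (-0.09 ± 0.06) did not pass the test. CDT1 read 40.6, 39.7 and 40.9 CPM in vehicle and 37.1, 40.3 and 36.8 CPM with dried ginger, so that the groups overlapped, and the 95% interval of its change ran from -0.21 to 0.04 log2. PRIM1, the catalytic primase subunit, was the one gene of the 35 with a positive estimate, at 0.09 ± 0.05 log2, from 35.5, 39.8 and 36.0 CPM in vehicle and 39.1, 36.9 and 41.8 CPM with dried ginger (interval -0.02 to 0.19). In all, 29 genes had the 3 treated libraries below the 3 vehicle libraries, which held for 22.7% of the 17870 genes kept over all libraries.

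**Figure D1:**
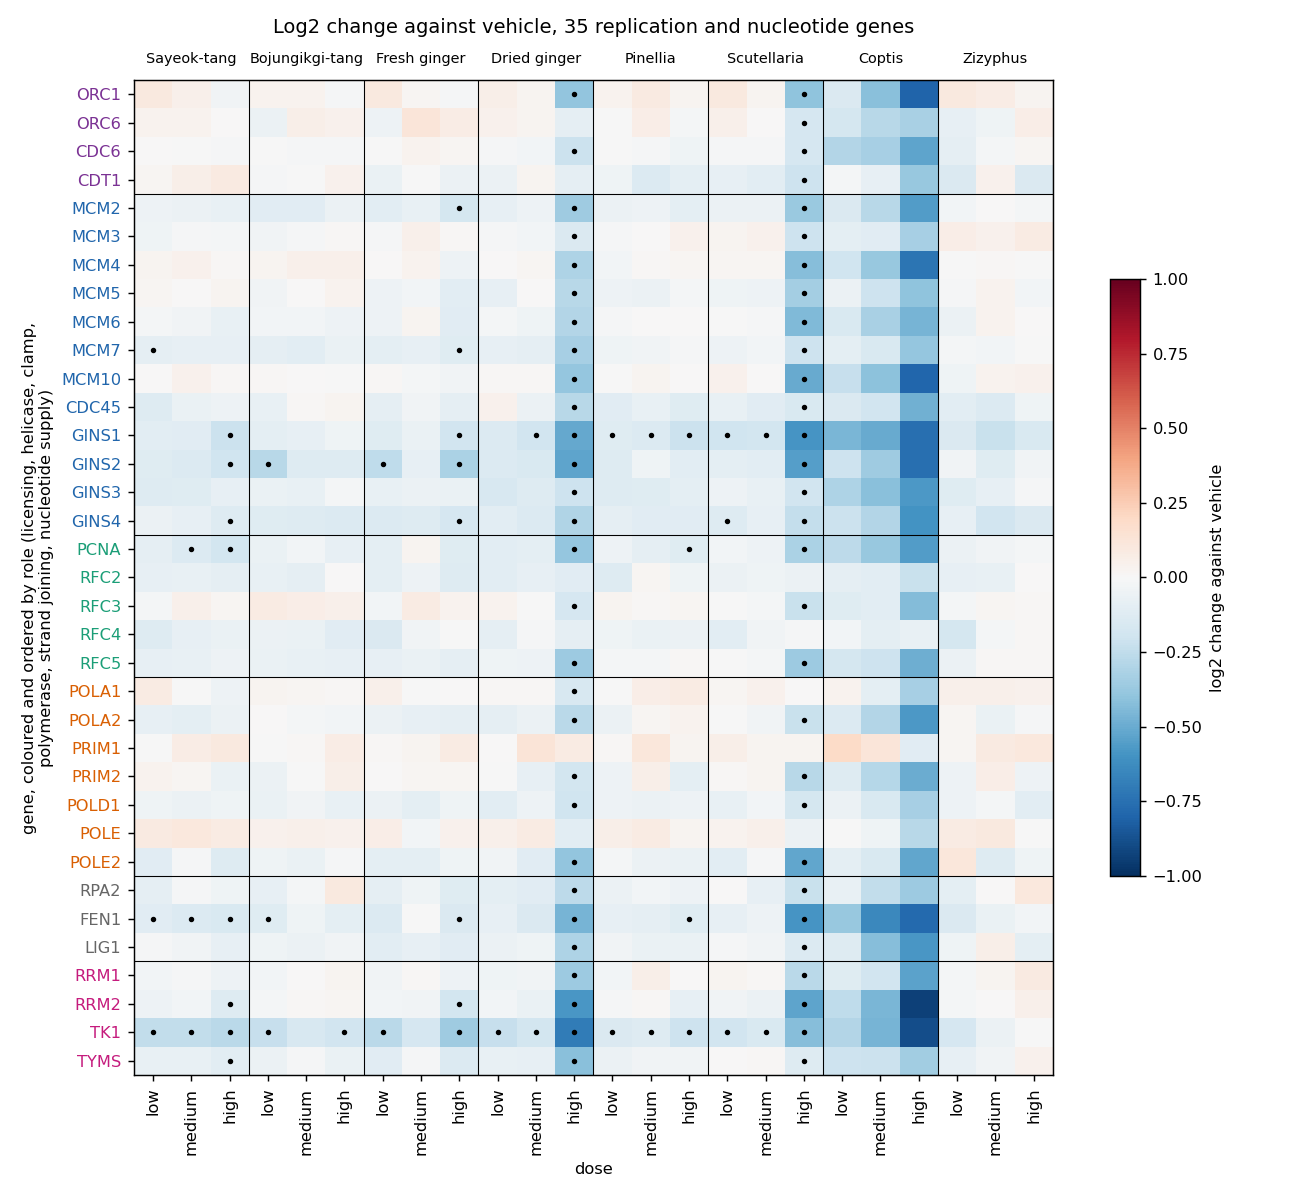
Each cell gives the log2 change of 1 gene (rows, grouped by role) against vehicle for 1 extract and dose (columns), with blue for lower and red for higher; black points mark edgeR calls at adjusted p under 0.05, and Coptis and Zizyphus have 1 library per dose and no test. The bluest columns are dried ginger high (29 points), Scutellaria high (30 points) and Coptis high and medium (medians -0.50 and -0.28 log2).

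Scutellaria at 190 µg/mL lowered 30 of the 35 genes and raised none (edgeR, adjusted p under 0.05), with 20% of the 16582 genes tested called lower and 20.2% higher. The median of the 35 was -0.23 log2, against 0.01 over all genes tested. All 12 helicase genes, the 4 licensing genes, the 3 strand binding and joining genes and the 4 nucleotide supply genes fell, with 3 of 5 clamp and loader genes and 4 of 7 polymerase and primase genes. The same vehicle libraries served here and for dried ginger, so the 2 comparisons are not independent. All 3 treated libraries lay below the 3 vehicle libraries in 30 genes, against 23.4% of all genes kept.

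RRM2 was at 235, 236 and 236 CPM with Scutellaria at the high dose, against 341, 351 and 337 CPM in vehicle (-0.53 ± 0.03 log2, edgeR adjusted p = 1.00e-17). FEN1 read 81.8, 76.8 and 76.5 CPM against 121, 115 and 121 CPM (-0.59 ± 0.04 log2, adjusted p = 5.37e-16 by edgeR), and GINS1 read 61.7, 58.8 and 60.4 CPM against 89.9, 91.0 and 93.3 CPM (-0.59 ± 0.04 log2). The flap nuclease and the GINS subunit thus had the largest changes of the 35 here. MCM4 changed by -0.42 ± 0.03, MCM6 by -0.44 ± 0.03, MCM10 by -0.51 ± 0.04, MCM2 by -0.37 ± 0.04 and MCM5 by -0.34 ± 0.04 log2. The median of the helicase genes was -0.35 log2, about that of the nucleotide supply genes at -0.34.

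The nucleotide supply genes had unequal changes with Scutellaria. TK1 stood at 116, 111 and 110 CPM (-0.42 ± 0.04 log2), RRM1 changed by -0.27 ± 0.03, and TYMS read 131, 126 and 129 CPM against 137, 145 and 143 CPM in vehicle (-0.13 ± 0.03 log2, edgeR adjusted p = 0.00139). Of the clamp and its loader, PCNA (249, 236 and 244 CPM, -0.32 ± 0.04 log2), RFC5 (-0.36 ± 0.04) and RFC3 (-0.23 ± 0.04) fell, while RFC2 was at -0.06 ± 0.05 and RFC4 at -0.01 ± 0.05 log2. ORC1 (-0.40 ± 0.05 log2), CDT1 (-0.20 ± 0.05), CDC6 (-0.17 ± 0.03) and ORC6 (-0.17 ± 0.05) all passed.

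POLE2 fell from 16.4, 17.8 and 19.3 CPM to 12.3, 12.6 and 12.2 CPM with Scutellaria (-0.52 ± 0.07 log2, edgeR adjusted p = 4.58e-07), and PRIM2 (-0.28 ± 0.06), POLA2 (-0.22 ± 0.04) and POLD1 (-0.18 ± 0.04) fell too. POLA1 did not: it read 55.7, 59.5 and 60 CPM against 61.1, 57.9 and 57.1 CPM in vehicle, and its change of 0.00 ± 0.04 log2 had an interval from -0.07 to 0.08. PRIM1 (0.03 ± 0.05 log2) and POLE (-0.06 ± 0.04) also missed the threshold. CDC45 had a smaller change than the rest of the helicase, at -0.15 ± 0.05 log2, and its call was lost without library 3 of the high dose or of the vehicle and with total count scaling (adjusted p between 0.00606 and 0.203 over 12 alternatives). LIG1, at -0.14 ± 0.04 log2, lost its call with total count scaling alone (adjusted p = 0.0848, between 0.00442 and 0.0848).

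**Figure D2:**
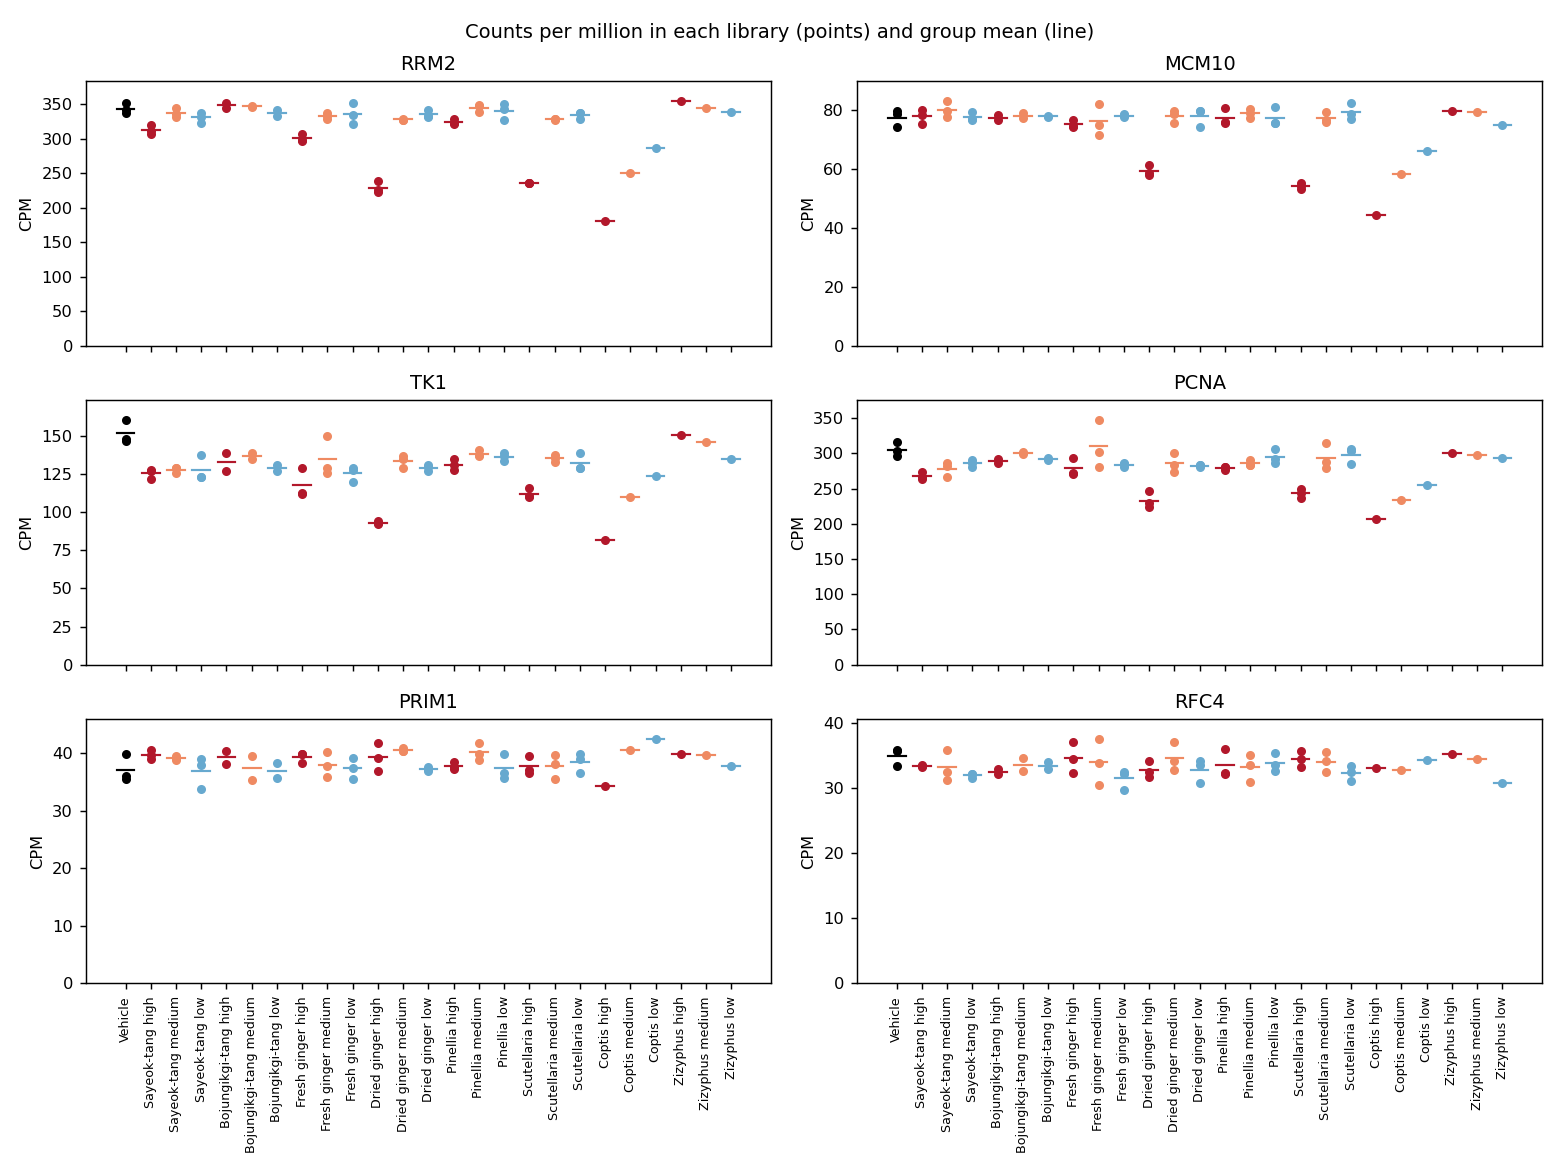
Each panel gives 1 gene in CPM (vertical axes from 0), with 1 point per library and a line at the group mean for vehicle (black) and each extract at its high (red), medium (orange) and low (blue) dose. RRM2, MCM10, TK1 and PCNA lie below the vehicle libraries at the high doses of dried ginger and Scutellaria and at each dose of Coptis, whereas PRIM1 and RFC4 overlap the vehicle libraries at the high doses of dried ginger and Scutellaria.

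The low dose of each extract served as another reference. The vehicle libraries entered the filter, scaling and spread of these fits but not the contrast itself. Against its own low dose, dried ginger at the high dose lowered 28 of 35 genes (median -0.25 log2; 16% of all genes were called lower and 16.8% higher), and Scutellaria lowered 27 of 35 (median -0.23 log2; 15.6% of all genes were called lower and 15.5% higher). No gene of the 35 rose in either (edgeR, adjusted p under 0.05). At the medium dose against the low dose the edgeR count was 0 for both extracts, with 1 of the 35 genes for dried ginger and 0 for Scutellaria at an unadjusted p under 0.05, and DESeq2 also called 0 in each. Of all genes 0.367% and 0.0181% were called lower in these comparisons. RRM2, for example, read 329, 327 and 327 CPM at the medium dose of dried ginger and 331, 341 and 333 CPM at the low dose.

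The high-against-low contrasts of the 2 extracts have no library in common, although both fits held the vehicle libraries. Of the 35 genes 25 fell in both, which is 89.29% of those called with dried ginger and 92.59% of those called with Scutellaria. Over the 16401 genes tested in both fits, 1664 fell in both, which is 63% and 64.5% of those called lower. Since most of the 35 were called with each extract, a large overlap within the list follows in part from the counts alone. CDC45, POLA1 and POLE passed with dried ginger alone, ORC6 and POLD1 with Scutellaria alone, and CDT1, GINS3, PRIM1, RFC2 and RFC4 with neither. Several of these sit close to the threshold. POLE lost its call without any 1 of the 3 dried ginger high-dose libraries, without low-dose library 3 and with total count scaling (adjusted p between 0.00781 and 0.149 over 12 alternatives), and POLD1 lost its call in 9 of 12 alternatives, including the omission of any of the 3 high-dose libraries or of low-dose library 2 or 3 of Scutellaria (adjusted p between 0.00865 and 0.249). PRIM2 and RPA2 with dried ginger lost theirs in 7 and 4 of 12, and GINS4 and LIG1 with Scutellaria in 5 each. Across the 35 genes, which share libraries and are not replicates, the 2 sets of log2 changes had a Pearson r of 0.7561 and a Spearman rho of 0.7429.

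**Figure D3:**
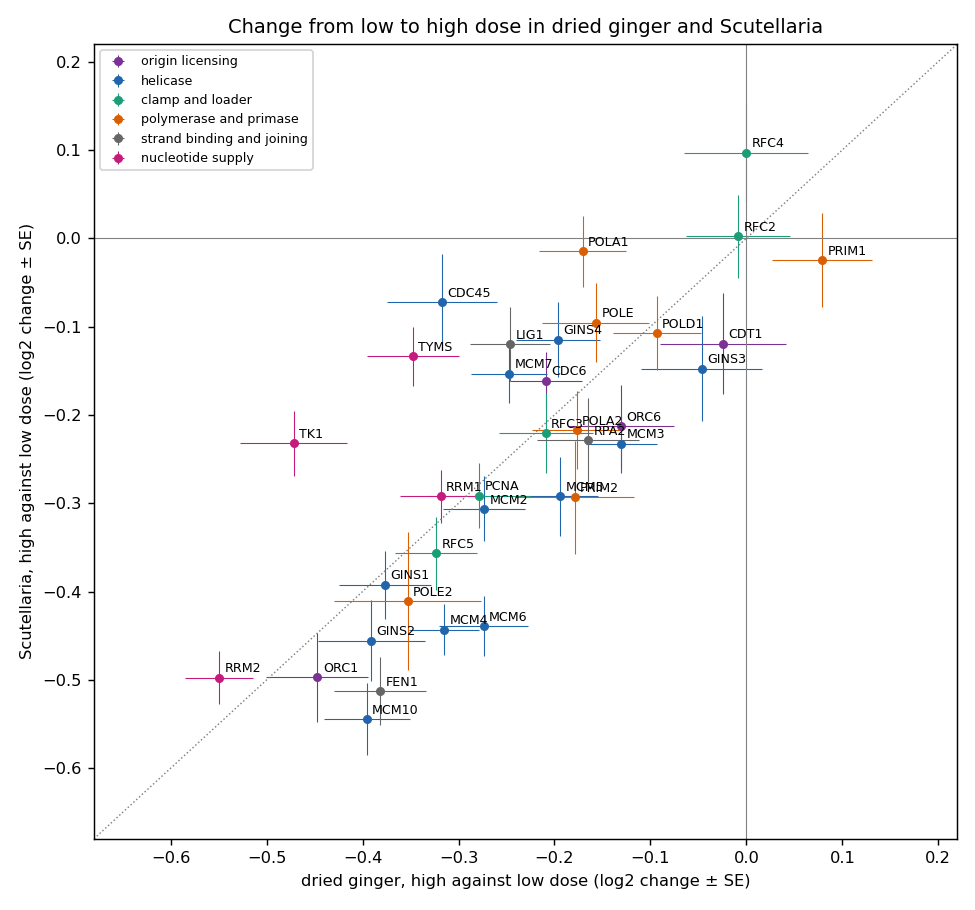
Log2 change from the low to the high dose (± SE) of the 35 genes with dried ginger (horizontal axis) and Scutellaria (vertical axis), 3 libraries per group, coloured by role; the dotted line marks equal change. RRM2, ORC1, MCM10 and FEN1 lie in the lower left, TK1, TYMS and CDC45 above the line, and RFC2, RFC4 and PRIM1 near 0.

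A direct test of the difference between the extracts in their change from low to high dose called 5 genes (edgeR over all 60 libraries, adjusted p under 0.05; 5.88% of all genes were called). The doses differ between the extracts, and the comparison was added after the data had been seen. TYMS (-0.21 ± 0.06 log2), TK1 (-0.24 ± 0.07) and CDC45 (-0.24 ± 0.07) fell more with dried ginger, and MCM6 (0.17 ± 0.05) and MCM4 (0.13 ± 0.04) fell more with Scutellaria. These 5 calls are fragile: the count was 3 with relative log expression scaling and 3 with total count scaling. It was 1 without dried ginger high-dose library 2, Scutellaria high-dose library 1 or Scutellaria low-dose library 3. It was 2 without dried ginger low-dose library 1 or 2, Scutellaria high-dose library 2 or Scutellaria low-dose library 2, and 3 without dried ginger high-dose library 3 or low-dose library 3, Scutellaria high-dose library 3 or Scutellaria low-dose library 1.

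Fresh and dried ginger are named as the fresh and the dried rhizome, and both were given as ethanol extracts at 500 µg/mL. The labels do not say whether both came from the same plant material. At that dose 28 of the 35 genes were lower with dried than with fresh ginger and none were higher (edgeR, adjusted p under 0.05; 11.3% of all genes were called lower and 11.3% higher), with a median difference of -0.19 log2. RRM2 read 226, 223 and 238 CPM with dried and 297, 298 and 307 CPM with fresh ginger (-0.40 ± 0.04 log2, edgeR adjusted p = 1.24e-09). MCM10 read 57.9, 58.4 and 61.1 against 74.3, 74.6 and 76.4 CPM (-0.35 ± 0.05 log2), and ORC1 read 34.9, 31.1 and 34.2 against 43.2, 41.9 and 44.8 CPM (-0.38 ± 0.05 log2). In these genes, as in 28 of the 35, all dried ginger libraries lay below all fresh ginger libraries, which held for 17.1% of all genes kept. RRM1 (-0.31 ± 0.04) and MCM4 (-0.26 ± 0.04) were among the 5 with the lowest p, and TK1 (-0.34), TYMS (-0.28), PCNA (-0.27), FEN1 (-0.32), POLE2 (-0.35), CDC6 (-0.24), RFC3 (-0.20), CDC45 (-0.19), MCM2 (-0.18), MCM5 (-0.17) and POLA1 (-0.16) also passed.

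The genes that were not called lower with dried than with fresh ginger were CDT1 (-0.03 log2, 95% interval -0.16 to 0.10), GINS3, RFC2, RFC4, PRIM1 (0.00, interval -0.10 to 0.10), POLE and RPA2. When each ginger was first set against its own low dose, 21 of the 35 genes fell more with dried ginger (median difference -0.23 log2; 5.67% of all genes were called lower in this test of the difference). RRM2 (-0.39 ± 0.05 log2), FEN1 (-0.38 ± 0.07), MCM10 (-0.34 ± 0.06), RFC5 (-0.31 ± 0.06) and RRM1 (-0.30 ± 0.06) had the lowest p.

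Fresh ginger itself lowered 8 genes at 500 µg/mL and raised none (edgeR, adjusted p under 0.05; 7.16% of all genes were called lower and 6.21% higher), with a median of -0.09 log2. TK1 read 112, 113 and 129 CPM (-0.36 ± 0.06 log2), GINS2 41.8, 45.1 and 45.8 CPM against 54.5, 54.3 and 57.2 CPM in vehicle (-0.31 ± 0.06), RRM2 297, 298 and 307 CPM (-0.18 ± 0.04) and MCM2 100, 99.4 and 102 CPM against 117, 113 and 112 CPM (-0.17 ± 0.04). GINS1 (-0.19), GINS4 (-0.17), FEN1 (-0.14) and MCM7 (-0.12) passed as well. No licensing, polymerase or clamp gene was called, and without vehicle library 1 the count was 5. Against its own low dose RRM2 alone was called (-0.15 ± 0.04 log2; 1.95% of all genes called lower), a call lost without high-dose library 1 or 2 or low-dose library 3. At the medium dose edgeR called 0 genes (3 at an unadjusted p under 0.05; 0 by DESeq2; 0.541% of all genes called lower), and 1 without medium-dose library 2, which read 150 CPM for TK1 and 348 CPM for PCNA, against 126 and 129 CPM and 281 and 302 CPM in the other libraries of that dose.

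Sayeok-tang at 500 µg/mL lowered 8 genes and raised none (edgeR; 9.53% of all genes were called lower and 9.39% higher), with a median of -0.05 log2. PCNA read 263, 273 and 267 CPM (-0.19 ± 0.03 log2, edgeR adjusted p = 4.40e-05), TK1 127, 122 and 128 CPM (-0.27 ± 0.04), GINS1 76.5, 79.9 and 80.0 CPM (-0.21 ± 0.04) and RRM2 307, 311 and 319 CPM (-0.13 ± 0.03). FEN1 (-0.15), GINS2 (-0.20), GINS4 (-0.13) and TYMS (-0.11) also fell. This share of the 35 is above the share of all genes, but the changes were small, and against the low dose of the same extract POLA1 alone was called (-0.13 ± 0.04 log2; 3.77% of all genes). That call was absent under DESeq2, without the filter on low counts, and without any 1 of high-dose libraries 1, 2 and 3 or low-dose libraries 2 and 3. Bojungikgi-tang at 500 µg/mL lowered TK1 alone (139 and 127 CPM, -0.19 ± 0.05 log2; 2.33% of all genes), and not without library 3 of that dose. Against its low dose edgeR called 0 genes, with 2 at an unadjusted p under 0.05 and 0 by DESeq2 (0.455% of all genes were called lower). Between the 2 formulas at that dose, RRM2 (-0.15 ± 0.03 log2) and GINS1 (-0.17 ± 0.05) were lower with Sayeok-tang (0.957% of all genes). The count was 0 without Bojungikgi-tang library 3 and 1 without any 1 of the 3 Sayeok-tang libraries. The difference between the formulas in their change from low to high dose was called in 0 genes by edgeR, with 4 at an unadjusted p under 0.05 and 0 by DESeq2 (0.114% of all genes were called lower).

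Pinelliae Tuber at 500 µg/mL lowered GINS1 (77.2, 76.6 and 81.9 CPM, -0.21 ± 0.04 log2), TK1 (131, 128 and 135 CPM, -0.20 ± 0.04), PCNA (281, 277 and 281 CPM, -0.12 ± 0.04) and FEN1 (-0.12 ± 0.04), with 5.08% of all genes called lower by edgeR. The count was 2 without library 1 or 3 of that dose, without vehicle library 3, in 1 fit of all 60 libraries and with total count scaling. Against its low dose edgeR called 0 of the 35, with 4 at an unadjusted p under 0.05 and 0 by DESeq2, while 0.00603% of all genes were called lower.

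TK1 differed from vehicle at low doses too. It was called lower at the low dose of all 6 extracts with replicates, by 0.27 ± 0.05 log2 with fresh ginger, 0.24 ± 0.04 with Sayeok-tang, 0.23 ± 0.05 with Bojungikgi-tang, 0.23 ± 0.05 with dried ginger, 0.19 ± 0.04 with Scutellaria and 0.15 ± 0.04 with Pinelliae Tuber (edgeR, adjusted p under 0.05). In 55 of the 57 extract libraries TK1 was below the lowest vehicle library, and so were GINS1 and GINS2 in 55 each, the highest number among the 35 genes. At least 55 libraries lay below in 1.86% of all genes kept, and each of these counts rests on the same 3 vehicle libraries. The vehicle libraries read 147, 148 and 161 CPM for TK1, and the low-dose libraries of the 6 extracts ran from 120 to 139 CPM. The call was lost for Bojungikgi-tang without low-dose library 2, for dried ginger without any 1 of its low-dose libraries 1, 2 and 3 or vehicle library 3, and for Pinelliae Tuber without low-dose library 2 or vehicle library 3 and in 1 fit of all 60 libraries. Adjusted p over the alternatives of the 3 ran from 8.54e-07 to 0.0866, from 8.82e-05 to 0.136 and from 0.000514 to 0.125.

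The sample titles give the vehicle and extract libraries the same batch name, but the sample codes number the vehicle libraries as a set of their own. An extract effect common to all low doses and a difference of that set cannot be told apart. The share of mitochondrial counts was 8.58 to 9.38% in the vehicle libraries and 8.29 to 11.7% in the low-dose libraries of these 6 extracts, and its part in the TK1 difference was not tested. Counts of the 35 genes called lower at the low dose were 3 for Sayeok-tang (TK1, FEN1 and MCM7; 4.76% of all genes), 3 for Bojungikgi-tang (GINS2, TK1 and FEN1; 4.19%), 2 for fresh ginger (TK1 and GINS2; 3.63%), 1 for dried ginger (TK1; 2.14%), 2 for Pinelliae Tuber (TK1 and GINS1; 3.46%) and 3 for Scutellaria (GINS1, TK1 and GINS4; 5.02%). At the medium dose they were 3 (TK1, PCNA and FEN1; 6%), 0 (5 at an unadjusted p under 0.05 and 2 by DESeq2; 1.28%), 0, 2 (GINS1 and TK1; 3.5%), 2 (GINS1 and TK1; 4.33%) and 2 (GINS1 and TK1; 5.51%) in the same order. With so few genes called, the shares of the 35 are not read as differing from those of all genes.

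Single libraries and the choice of fit moved several of these small counts. In 1 fit of all 60 libraries fresh ginger low had 6 and dried ginger medium had 5, and DESeq2 gave 4 for dried ginger medium. At the low dose Sayeok-tang had 1 without its library 1 or 3 or vehicle library 3, Bojungikgi-tang 1 without its library 2 or 3, fresh ginger 1 without its library 2, dried ginger 0 without any 1 of its own libraries or vehicle library 3, and Pinelliae Tuber 0 without its library 2 or vehicle library 3 and 1 without its library 3. At the medium dose Sayeok-tang had 1 without its library 1 and 5 without its library 2, Bojungikgi-tang 1 without vehicle library 3, Scutellaria 1 without vehicle library 3, and Pinelliae Tuber 0 without its library 2 or 3 or vehicle library 3. Dried ginger at the medium dose had 0 without its library 2 or 3 or vehicle library 3, and 1 without its library 1 or vehicle library 2.

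Coptis had 1 library per dose, so its values have no replicate check and no test. At 110 µg/mL all 35 genes lay below the 3 vehicle libraries, which held for 38.2% of all genes kept, and the median log2 ratio to the vehicle mean was -0.50, against -0.01 over all genes. Of the 35, 17 were lower by at least 0.5 log2 as well as below all vehicle libraries, against 5.43% of all genes, and none were higher by that much. RRM2 was at 180 CPM at the high dose, 250 at the medium and 287 at the low dose (vehicle 341, 351 and 337). TK1 was at 81.8, 110 and 124 CPM in that order, MCM10 at 44.4, 58.2 and 66.0, PCNA at 207, 234 and 255, and FEN1 at 69.4, 76.1 and 91.5. Each of these genes was lowest at the high dose and nearest to vehicle at the low dose.

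The order high below medium below low was seen in 33 of the 35 genes with Coptis, against 25.4% of all genes kept. At 22 µg/mL the median was -0.28 log2, with 2 genes past the fold (FEN1 and GINS1; 3.13% of all genes) and 33 below all vehicle libraries, against 35% of all genes. At 4.4 µg/mL it was -0.14 log2, with 0 past the fold (1.61% of all genes) and 29 below all vehicle libraries (32.2%). Scaled by total count, 5 genes were past the fold at the medium dose and 1 at the low dose, and 1 was past it at the medium dose without vehicle library 3 or with a larger pseudocount. The mitochondrial share of counts was 9.92% in the high-dose Coptis library, 15.9% in the medium and 15.0% in the low, while no other library exceeded 11.7%, and its part in the values was not tested.

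At the high dose of Coptis the most changed genes were RRM2 (-0.93 log2 ratio), TK1 (-0.89), ORC1 (-0.80), MCM10 (-0.79) and FEN1 (-0.77). The least changed were RFC4 (-0.08) and PRIM1 (-0.11), which also missed the threshold with dried ginger and with Scutellaria. POLA1 was at -0.33, CDC45 at -0.48, TYMS at -0.34 and CDT1 at -0.38. Zizyphi Fructus, also with 1 library per dose, had medians of 0.00, 0.00 and -0.05 log2 at its high, medium and low dose, and none of the 35 genes was past the fold in any of the 3 libraries (1.16, 1.21 and 1.44% of all genes were past it). In that order 8, 11 and 22 genes lay below all vehicle libraries, against 26.2%, 29.2% and 30.9% of all genes.

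**Figure D4:**
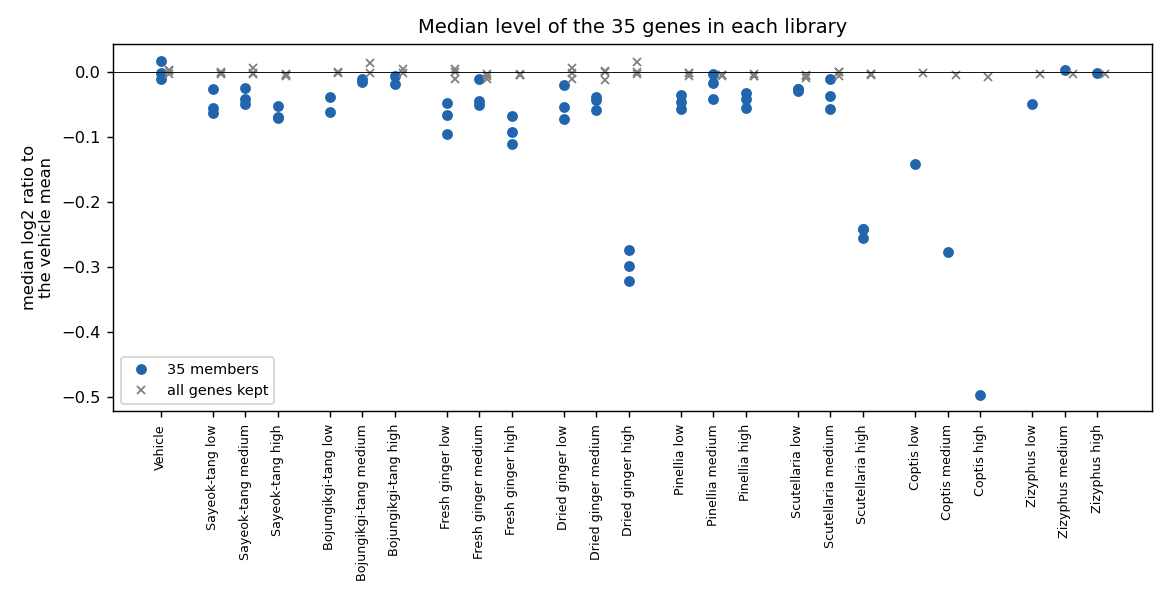
Median over the 35 genes of the log2 ratio to the vehicle mean (blue points) and the same median over all genes kept (grey crosses), with 1 pair per library. Dried ginger high (-0.27 to -0.32), Scutellaria high (-0.24 to -0.26) and the Coptis libraries (-0.14 to -0.50) lie below the others, while the grey crosses stay near 0.

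Other genes of the same processes were taken from lists chosen by function, also with earlier results of these data known. Their counts stand beside all genes tested, of which 19% were called lower and 20.2% higher with dried ginger, and 20% lower and 20.2% higher with Scutellaria. Of 39 further replication genes, 25 fell and 1 rose with dried ginger at the high dose (median -0.18 log2), and 22 fell and 1 rose with Scutellaria (median -0.14). ASF1B, a histone chaperone, changed by -0.64 ± 0.05 and -0.57 ± 0.04 log2, and CLSPN, which stabilises forks, by -0.49 ± 0.06 and -0.44 ± 0.05. Of 36 further nucleotide metabolism genes, 19 fell and 7 rose with dried ginger, and 18 fell and 7 rose with Scutellaria. In that list MTHFD2 and SHMT2, enzymes of mitochondrial folate metabolism, rose by 0.74 ± 0.04 and 0.46 ± 0.04 log2 with dried ginger and by 0.80 ± 0.03 and 0.46 ± 0.04 with Scutellaria.

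The shares of all genes called lower and higher given above stand beside the next lists too. Of 17 regulators of S phase entry, 7 fell and 2 rose with dried ginger, and 11 fell and 4 rose with Scutellaria. CDC25A, a phosphatase that activates the S phase kinases, changed by -0.44 ± 0.05 and -0.53 ± 0.05 log2, and CDKN1A, which encodes the inhibitor p21, rose by 0.42 ± 0.04 with Scutellaria. Of 30 mitosis genes, 30 fell with dried ginger (median -0.56 log2) and 28 with Scutellaria (median -0.37), none rose in either, and in both cases the median was further from 0 than that of the 35 replication and nucleotide genes. The lowest p-values with dried ginger were those of CCNB1 (-0.83 ± 0.04 log2), the cyclin of mitotic entry, KIF20A (-0.97 ± 0.05) and AURKA (-0.80 ± 0.04), and with Scutellaria those of BIRC5 (-0.59 ± 0.03), AURKA (-0.59 ± 0.03) and ANLN (-0.54 ± 0.03). Whether the mitosis genes changed more than the replication genes was not tested.

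Changes were also set beside the promoter matches shown above. In the 17 genes with an E2F-type match the median change was -0.30 log2 with dried ginger and -0.21 with Scutellaria at the high dose, and in the 14 without one it was -0.32 and -0.27. With a CCAAT match (18 genes) the medians were -0.35 and -0.29, and without (13 genes) -0.20 and -0.20. RRM2, TK1, FEN1 and MCM10, all among the most lowered, were without an E2F-type match in these windows, but GINS1 and GINS2, also among the most lowered, had 1 each. Of the genes called against vehicle with neither extract, PRIM1, RFC2 and RFC4 had none and POLE had 1. CDT1, called with Scutellaria alone, had 1 too. These medians are descriptions with no test.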

How the data were processed

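The deposited values are RSEM expected counts per gene, and per the submitters' processing notes the tools were FastQC 0.11.9, Trim Galore 0.6.5, STAR 2.7.3a and RSEM 1.3.3 with GRCh38. Of 269 columns, 60 matched the samples and 209 were not used. Expected counts were rounded to whole numbers. Each numbered set of 2 extracts was fitted with the vehicle libraries in edgeR 4.0.16 (R 4.3.3): genes with low counts were filtered (minimum count 10), libraries scaled by TMM, and a quasi-likelihood test run on all genes with Benjamini-Hochberg adjustment, calling adjusted p under 0.05. SE is the log2 change divided by the root of F. CPM used TMM over all 60 libraries. Extracts with 1 library per dose were compared as log2(CPM + 0.5), past the fold when lower by at least 0.5 and below all vehicle libraries. The test was tried on simulated counts, drawn once, with 50 genes changed at each fold. With dried ginger, 40% of genes changed 1.15-fold, 88% changed 1.25-fold and 98% changed 1.5-fold were recovered among 16464 genes. Of the calls made, 5.8% were false. The counts were drawn from a model of the kind the test assumes, with the spread fitted to these libraries and each gene drawn independently. Fewer genes were changed in the simulation than were called in the data. For both reasons these shares may not carry over. Alternatives were DESeq2 1.42.0, other scalings, no filter on low counts, a single fit of the 60 libraries, a block for replicate number and the omission of each library in turn. Members and lists were chosen with earlier results of these data known. Genes named are 15 followed throughout, the 5 called genes of lowest p in a comparison and any called against the majority, and up to 3 genes of lowest p per other list (1 gene is not reported here); further members were named after their values were seen. The wortmannin control was not analysed here.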

Additional observations from a re-analysis of the deposited data

Results flagged for a closer look

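The change from low to high dose differed between dried and fresh ginger in 21 of the 35 genes, by a direct test of that difference (edgeR, adjusted p under 0.05), all lower with dried ginger, against 5.67% of all genes called lower. The differences, dried minus fresh, were -0.39 log2 for RRM2, -0.38 for FEN1, -0.34 for MCM10, -0.31 for RFC5 and -0.30 for RRM1. The same test between dried ginger and Scutellaria, at unequal doses, called 5 genes, against 5.88% of all genes called in either direction, and 1 to 4 when any single library of these groups was left out. The differences were -0.21 log2 for TYMS, -0.24 for TK1, -0.24 for CDC45, 0.17 for MCM6 and 0.13 for MCM4.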

How the results depend on the processing

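No call on a named gene reversed in direction under any alternative run, but several calls were lost. POLD1 in Scutellaria high against low lost its call in 9 of 12 alternatives. MCM4 in dried ginger minus Scutellaria lost its call in 11 of 16. With dried ginger high against vehicle the count was 27 to 30 when 1 library was left out and 26 with total count scaling, and with Scutellaria it was 29 to 30 and 28. High against low gave 25 to 28 and 25 for dried ginger, and 24 to 28 and 24 for Scutellaria. In 1 fit of all 60 libraries the counts were 1 for Sayeok-tang low, 1 for fresh ginger medium, 6 for fresh ginger low, 5 for dried ginger medium, 2 for dried ginger low, 2 for Pinelliae Tuber high, 0 for its medium and low doses, and 1 for Sayeok-tang against Bojungikgi-tang. DESeq2 gave 0 for Sayeok-tang high against low, 2 for Bojungikgi-tang medium, 4 for dried ginger medium and 1 between the formulas. Without the filter the counts were 5 for Sayeok-tang medium, 0 for its high against low, 1 for Bojungikgi-tang medium, 1 for fresh ginger medium, and 4 and 4 for Pinelliae Tuber medium and low. Total count scaling gave 1 for dried ginger medium, 2, 0 and 1 for Pinelliae Tuber high, medium and low, 3 for dried ginger minus Scutellaria (3 also with relative log expression), and 5 and 1 for Coptis medium and low; a pseudocount of 2 CPM gave 1 for Coptis medium.

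Leaving out 1 library gave 6 to 8, 1 to 5 and 1 to 3 for Sayeok-tang high, medium and low, and 0 to 1 for its high against low. It gave 0 to 1, 0 to 1 and 1 to 3 for Bojungikgi-tang, 5 to 9, 0 to 1 and 1 to 2 for fresh ginger (0 to 1 for its high against low), 0 to 2 and 0 to 1 for dried ginger medium and low, 2 to 4, 0 to 2 and 0 to 3 for Pinelliae Tuber, 1 to 2 and 2 to 3 for Scutellaria medium and low, 23 to 26 for dried against fresh ginger, 17 to 21 for their difference in dose response, 0 to 2 between the formulas, 1 to 4 for dried ginger minus Scutellaria, and 16 to 19 and 1 to 2 for Coptis high and medium. Deviations from the group means were little correlated between libraries of the same replicate number (median -0.001, 0.02 and 0.01 in the 3 sets). Between libraries of different numbers the medians were -0.004, -0.01 and -0.007 in the same order. In the ginger set the highest correlation was 0.15 for both kinds of pair. With the replicate number as a block the counts were 0 for Bojungikgi-tang high, 4 for dried ginger medium and 1 between the formulas.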
